A study of Mus musculus with 2 samples.

Results

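Ribosomal protein genes encode the proteins of the small and large subunits of the cytoplasmic ribosome. Reads were assigned to them by name: among sequences that the deposited table places in its RefSeq class, those whose gene name is a cytoplasmic ribosomal protein symbol (Rpl, Rps, Rplp or Rpsa) were taken. The rule found 82 gene names of 16128 in that class, 50 of the large subunit and 32 of the small subunit. They held 18174 of its 1085452 distinct read sequences. The rule used names only, but it was set with earlier results of these data known.

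The series holds 1 small RNA library from each of 2 kinds of fetal liver at stage E18.5 (embryonic day), both of the strain labelled B6/129. One liver was wild type and the other carried Ago2ADH, an allele that the labels call catalytically inactive. Ago2 is the Argonaute protein that can cut a target RNA, and the labels do not say how many livers went into a library. RNA of 19 to 30 nt was cut from a gel, and the sequenced reads were 15 to 34 nt long. With 1 library per genotype there is no replicate check and no p-value. Intervals in brackets are exact 95% intervals for counting error only, and PCR reads without molecular identifiers are not independent molecules.

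Ribosomal protein mRNAs are among the most abundant and most heavily translated mRNAs of a growing tissue. They begin with a terminal oligopyrimidine (TOP) tract through which their translation is controlled together. Their introns carry many small nucleolar RNAs (snoRNAs), which guide the modification of ribosomal RNA: C/D box snoRNAs guide 2′-O-methylation and H/ACA box snoRNAs guide pseudouridylation. The mouse genome also holds many processed pseudogenes of these genes, intronless copies made from spliced mRNA, some of which lie inside other genes.

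The label mRNA fragments held for only part of these reads. An exact match to the transcripts of GENCODE M21 (GRCm38) placed 50.8% of the wild-type and 49.99% of the Ago2ADH reads in a protein-coding transcript of the named gene. A further 37.1% and 36.6% matched a snoRNA, 5.72% and 6.79% another transcript of the gene, mostly one that retains an intron, and 6.26% and 6.57% none of these. In the other RefSeq genes, 2.66% and 3.05% of reads matched a snoRNA. The gene names therefore gather reads from spliced mRNA and from introns, and each kind is described in turn.

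GENCODE annotates 59 snoRNAs inside 30 of these genes, all within introns of the reference transcript and 58 on the strand of the host. The sequences below, from GENCODE M21, are of snoRNAs that carried many reads or had a high or low ratio between the libraries. They were chosen after their values were seen. Capitals mark the most abundant read under the host gene's name.
Snora33 (chr10:23785347-23785475, minus strand, intron of Rps12): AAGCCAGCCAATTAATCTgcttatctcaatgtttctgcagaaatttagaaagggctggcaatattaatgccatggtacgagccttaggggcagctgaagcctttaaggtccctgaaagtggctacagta
Gm23130 (chr10:23786470-23786543, minus strand, intron of Rps12): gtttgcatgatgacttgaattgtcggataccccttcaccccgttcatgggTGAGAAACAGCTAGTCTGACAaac
Snord100 (chr10:23785750-23785823, minus strand, intron of Rps12): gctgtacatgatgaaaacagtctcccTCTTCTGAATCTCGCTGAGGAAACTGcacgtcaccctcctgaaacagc
Snord83b (chr15:80078498-80078591, minus strand, intron of Rpl3): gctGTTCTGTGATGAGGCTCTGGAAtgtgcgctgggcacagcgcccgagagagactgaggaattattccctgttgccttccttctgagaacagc
Snord4a (chr11:78181686-78181756, minus strand, intron of Rpl23a): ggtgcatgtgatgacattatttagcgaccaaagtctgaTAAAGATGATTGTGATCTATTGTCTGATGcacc
Gm25091 (chr5:146834834-146834904, plus strand, intron of Rpl21): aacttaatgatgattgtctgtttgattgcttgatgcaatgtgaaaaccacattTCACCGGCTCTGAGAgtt

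The mRNA fragments were mostly pieces of coding sequence, none of them abundant. The most frequent coding reads of Rpl9 and Rps7 and 2 of the reads that crossed an exon junction and had another gene's RefSeq name are shown. In the junction reads capitals mark the bases after the junction.
Rpl9, bases 189 to 210 of the transcript: acatcaacgtggagctgagtct
Rps7, bases 141 to 161: aatggcgagaagccggacgag
Rps27, bases 250 to 269: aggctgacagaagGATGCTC
Rps3a, bases 693 to 717: aactGATTCCAGACAGCATTGGGAA
The Rpl9 read was counted 7 times in each library and the Rps7 read 8 times in wild type and 2 times in Ago2ADH. The Rps27 junction read, counted 3 and 4 times, carried the name Odz3 in the table, and the Rps3a junction read, counted 6 and 0 times, carried the name Mapkap1. Junction reads of Rpl23a, counted 2 and 4 times, and of Rpl31, counted 4 and 2 times, were as frequent as that of Rps3a.

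Together the 82 genes gave 20462 wild-type and 17325 Ago2ADH reads, or 2692 and 2459 RPM (reads per 1000000 reads of the library). The libraries held 7599870 and 7046197 reads in all. They made up 2.11% and 2.05% of RefSeq-class reads. The ratio of Ago2ADH to wild type was -0.13 on the log2 scale (-0.16 to -0.10). The sum over the mRNA-matching reads gave -0.16 (-0.20 to -0.11), with 10404 and 8660 reads, and the sum over the snoRNA-matching reads -0.15 (-0.20 to -0.10), with 7584 and 6342. In a bulk library, fewer cells of a type and less RNA per cell cannot be told apart. Of 10 erythroid markers, 5 of the 6 with 100 or more reads were lower in Ago2ADH with an interval below 0, and Tfrc, the transferrin receptor, was higher (0.47). Their summed level was 1825 RPM in wild type and 1177 in Ago2ADH (-0.63, -0.67 to -0.59), with none of the 10 at 0. The part of this difference in the ribosomal protein values was not tested. Myeloid markers, 7 of 8 detected, summed to 907 and 734 reads, or 119 and 104 RPM (-0.20, -0.34 to -0.05), with S100a9 and Ngp the 2 of 5 tested with an interval below 0, and their part was not tested either. Hepatocyte markers, all 10 detected, summed to 12156 and 12693 RPM, with an interval below 0 in 5, above 0 in 3 and a median of -0.02, and kidney and muscle markers to 1.97 and 1.84, with 4 of 5 detected.

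The genes with most reads were those with snoRNA reads. Of the 82 names, 24 held snoRNA reads, and in 10 of them these made up over 50% of the wild-type reads. Rps12, a protein of the small subunit head, led with 2386 wild-type and 1866 Ago2ADH reads (-0.25, -0.33 to -0.16). Without its single most abundant sequence, counted 923 and 600 times, it was at -0.10 (-0.21 to 0.01), with an interval across 0. Only 172 and 135 of these matched its mRNA, against 2191 and 1707 that matched its snoRNAs. Rpsa, the small subunit protein also known as the laminin receptor, had 1259 and 1040, of which 849 and 710 matched snoRNAs. The snoRNA share of their reads was 91.8% and 91.5% for Rps12 and 67.4% and 68.3% for Rpsa.

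The same held for other large subunit genes near the top. Rpl17 had 723 and 638 reads, of which 555 and 494 matched snoRNAs, and Rpl32 had 477 and 393, of which 375 and 331 did. Rpl27a had 408 and 297 reads (-0.35, -0.57 to -0.13), of which 274 and 191 matched snoRNAs and 110 and 83 its mRNA. Rps2, a small subunit protein at the mRNA entry, differed from them: of its 440 and 436 reads 268 and 265 matched mRNA and 105 and 102 snoRNAs. Rpl27a was lower in Ago2ADH with an interval that excludes 0, and the intervals of the other 3 reached across it.

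In Rpl7a, Rpl4, Rpl3 and Rps16 another part of the locus gave many reads. Rpl7a, of the large subunit, had 1130 and 949 reads, of which 633 and 529 matched neither its mRNA nor an annotated snoRNA. Rpl4, a core large subunit protein that lines the peptide exit tunnel, had 1019 and 1032 reads, of which 367 and 301 matched mRNA, 281 and 285 snoRNAs and 371 and 446 neither. Rps16, a small subunit protein, had 437 and 428 reads, with 292 and 296 matching neither, and Rpl3 had 1063 and 943, with 310 and 324 matching neither. The single read that contributed most to each of these remainders is shown, with the letters CTGA, the consensus D box of C/D snoRNAs, in capitals where present.
Rpl3, counted 110 and 117 times: ctctgtgCTGAatgtcaagttCTGAtt
Rpl4, counted 86 and 106 times: gaaggttgacgaacattgttaCTGAgcaa
Rpl7a, counted 95 and 85 times: ttgccagtgatgcttagga
Rps16, counted 56 and 89 times: tagcacttgtatgggt
The Rpl4 and Rpl7a reads matched a transcript that is not protein-coding, and the other 2 matched no GENCODE transcript of the gene. The genome sequence was not used here, so these reads were not placed further.

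In this remainder 8 genes had 100 or more reads, with a median log2 ratio of 0.16, against 0.05 over 1414 RefSeq genes. A size rule was used for all read sets: 100 or more reads over both libraries, a ratio of 0.5 or less or 2 or more, and an interval that excludes 1. Rpsa met it as lower, which 0.707% of all genes did in this read set, and no member met it as higher, against 1.13% of all genes. It had 97 wild-type and 32 Ago2ADH reads there (-1.49, -2.12 to -0.90). Its most abundant read of this kind, atccaacgtggacaacccaggaggtc, was counted 53 and 16 times and matched no GENCODE transcript of Rpsa. Rpl4, with 371 and 446 reads (0.37, 0.17 to 0.58), was the 1 gene with an interval above 0, against 12.7% of all genes, and Rpsa the 1 gene with an interval below 0, against 7.85%.

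**Figure D1:**
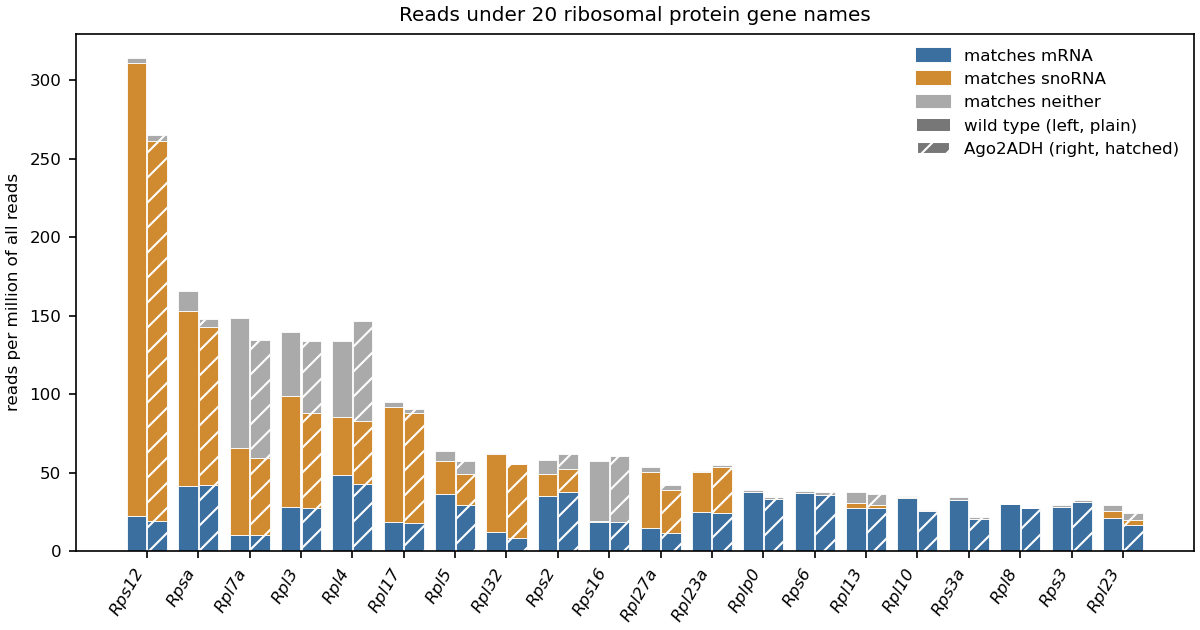
RPM, reads per 1000000 reads of the library (vertical axis), under 20 ribosomal protein gene names in order of wild-type reads, split by what the read matches. Left plain bars are wild type and right hatched bars Ago2ADH, 1 library each. In Rps12 and Rpsa the snoRNA part is the largest, and from Rplp0 rightwards, except Rpl13 and Rpl23, nearly all reads match mRNA.

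Under host gene names, 46 of the 59 snoRNAs had reads, in 24 genes, and 29 had at least 100 over both libraries. The most frequent start or end of their reads lay near an end of the snoRNA. In 22 of the 29 the most frequent read start lay in the first 5 bases, in 15 the most frequent read end lay in the last 5 bases, and every one of the 29 met at least one of these. In Snora33, 96.7% of reads started at base 1, and a single sequence of 18 nt made up 69.4% of them, with 923 wild-type and 600 Ago2ADH reads. In Gm23130 the pattern was at the opposite end, with 83.0% of reads ending at base 71 of 74. The reads of other snoRNAs were more spread: in Snord100 the most frequent start, base 4, held 29.0%, and its most abundant read lay inside, at bases 27 to 52.

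**Figure D2:**
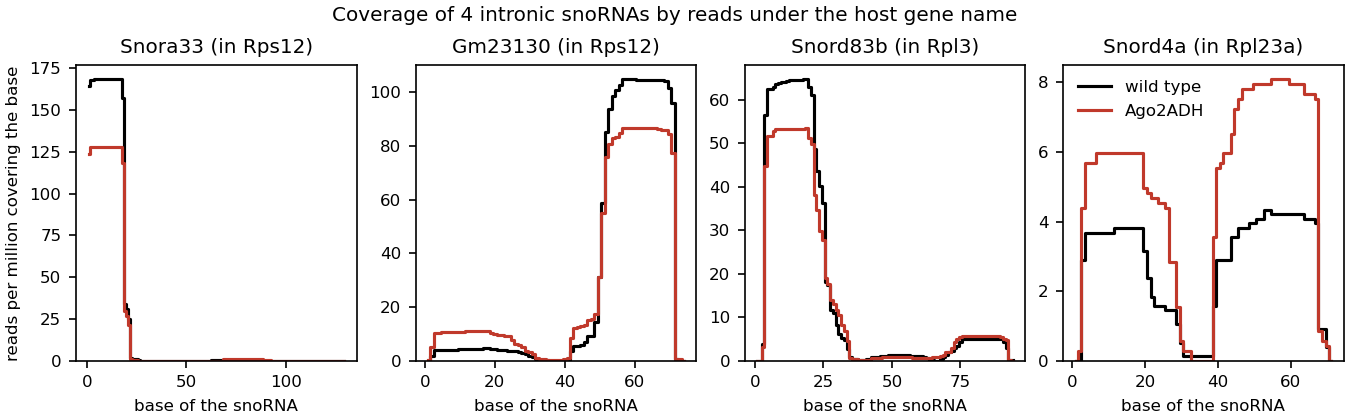
RPM covering each base (vertical axis, scaled separately) of 4 snoRNAs, counted under the host gene name, in wild type (black) and Ago2ADH (red), 1 library each. Coverage of Snora33 and Snord83b is highest over their first bases and that of Gm23130 towards its end, while Snord4a is covered towards both ends, in both libraries.

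The snoRNA fragments of 1 host could differ from each other. Over the 29 snoRNAs the median log2 ratio was -0.14, and in the 24 that are plotted it ran from -0.53 in Gm24134 of Rpl7a to 0.78 in Snord4a of Rpl23a. The interval lay below 0 in 9, above 0 in 4 and across 0 in 16, and none met the size rule. Among the 87 snoRNAs with 100 or more RefSeq-class reads outside ribosomal protein names, the median was 0.11, with 17.2% below, 31% above, 1.15% meeting the size rule as lower and 4.6% as higher. In Rps12, Snora33 had 1285 wild-type and 908 Ago2ADH reads (-0.39, -0.52 to -0.27), Gm23130 833 and 689 (-0.16, -0.31 to -0.02) and Snord100 73 and 110 (0.70, 0.26 to 1.15). Snora33 was lower and Snord100 higher in introns of the same gene, a pair chosen after its values were seen. How often snoRNAs of the same host differ this much was not counted. Of the Snora33 reads, 923 and 600 were 1 sequence of 18 nt, and a ratio without it is not given. Reads of 15 to 19 nt had a median of -0.16 over all RefSeq genes.

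Other hosts were described in the same way. Gm24044 of Rpsa had 165 and 199 reads (0.38, 0.07 to 0.69) and was higher in Ago2ADH, while all reads under the name Rpsa were at -0.17. In Rpl23a, a large subunit protein at the exit of the peptide tunnel, Snord4a had 62 and 99 reads (0.78, 0.31 to 1.27) and Snord42a 84 and 61 (-0.35, -0.85 to 0.14). Snord83b of Rpl3, the core large subunit protein next to the peptidyl transferase centre, had 541 and 425 (-0.24, -0.43 to -0.05). Snora7a of Rpl32 had 375 and 331 (-0.07, -0.29 to 0.15).

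**Figure D3:**
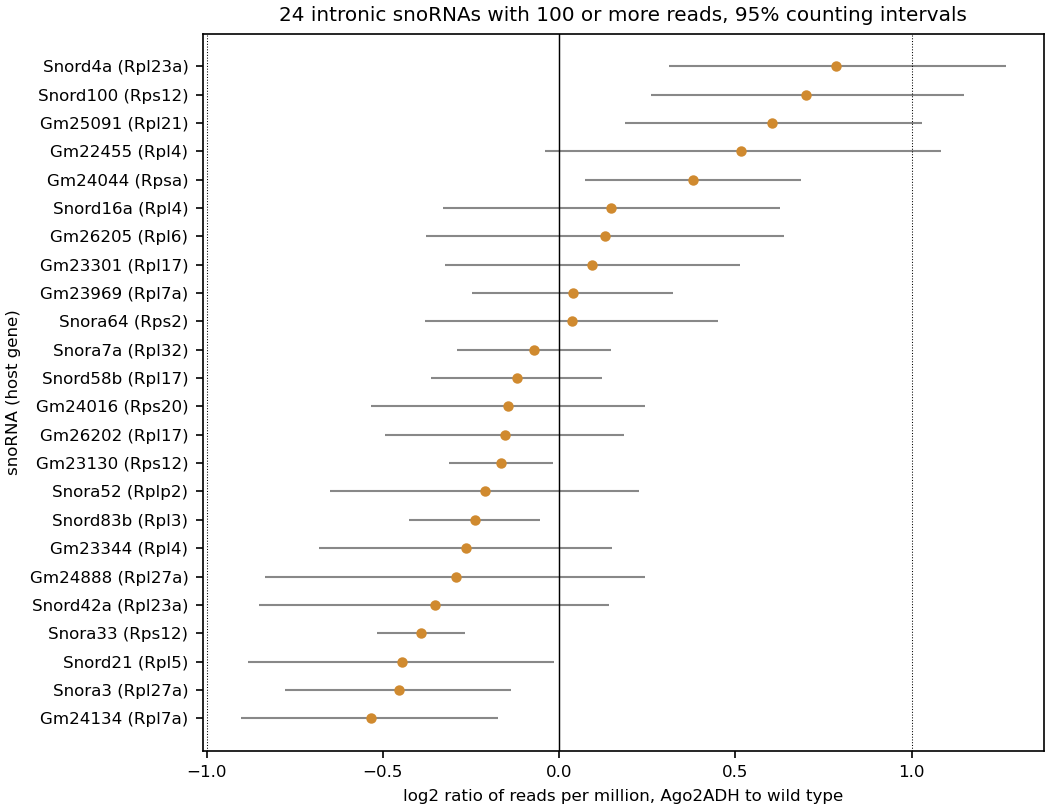
log2 ratio of RPM, Ago2ADH to wild type (horizontal axis), for 24 of the 29 intronic snoRNAs with 100 or more reads under the host gene name (host in brackets). Points are ratios of 1 library each, lines 95% counting intervals, and dotted lines a ratio of 0.5 and 2. Gm24134 is lowest at -0.53 and Snord4a highest at 0.78, and no point reaches a dotted line.

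Which snoRNAs count under a ribosomal protein name depended on the table's naming. Over the whole table, 11150 wild-type and 9333 Ago2ADH reads matched a snoRNA hosted by these genes. Of these, 68.0% in each library carried the host name, 23.1% and 25.4% another RefSeq name, and 8.91% and 6.68% lay in other classes. A group of 11 snoRNAs had reads in the table but none under the host. Rpl13a, a large subunit protein and a well-known snoRNA host, kept none of its Snord33 reads (379 and 403), Snord34 reads (225 and 187) or Snord32a reads outside its name (358 and 374). The 452 and 265 reads of Rnu73b, in an intron of Rps3a, had a ratio of -0.66 (-0.89 to -0.44). Except for 1 Ago2ADH read, they carried a RefSeq name other than that of a ribosomal protein. The 516 and 286 reads of Snord14a, in an intron of Rps13, carried neither the host name nor such another RefSeq name (-0.74, -0.96 to -0.53). Both were lower in Ago2ADH and neither entered the count of its host.

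By gene name, 72 of the 82 genes had 100 or more reads. Their median log2 ratio was -0.15, with 55 below 0, and over all 3329 RefSeq genes with as many reads it was 0.00. The interval lay below 0 in 14 of the 72 genes, against 9.31% of all genes, and above 0 in 2, against 10.3%. None met the size rule, which 0.511% of all genes met as lower and 0.391% as higher. The genes with under 100 reads were Rpl22l1, Rpl27, Rpl36a, Rpl38, Rpl39l, Rpl3l, Rpl7l1, Rps23, Rps24 and Rps27l.

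The 2 genes with an interval above 0 owed their place to reads outside the mRNA. Rpl21, a large subunit protein, had 112 wild-type and 148 Ago2ADH reads (0.51, 0.15 to 0.88), of which 84 and 119 matched snoRNAs, mainly Gm25091 with 83 and 117 (0.60, 0.19 to 1.03). Its mRNA had 26 reads in each library. Rpl4 was at 0.13 over all reads (0.0011 to 0.25) and at -0.18 over mRNA-matching reads (-0.40 to 0.05). The mRNA-matching reads of Rpsa (0.04, -0.20 to 0.27) likewise lay on the other side of 0 from its total, which was -0.17.

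Restricted to mRNA-matching reads, 69 genes had 100 or more and their median was -0.18, with 55 below 0. The same over 1296 RefSeq genes gave -0.06, with 58.6% below 0. The interval lay below 0 in 9 of the 69, against 13.7% of all genes, and above 0 in none, against 7.79%. No gene met the size rule, against 0.772% lower and 0.463% higher. The median was -0.19 in 41 large subunit genes and -0.12 in 28 small subunit genes. These values are on the scale of all reads. The summed mRNA-matching reads of all RefSeq genes were themselves lower in Ago2ADH (-0.20), and scaled to that sum the median of the 69 turned to 0.03 and their summed reads to 0.05 (0.01 to 0.09).

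**Figure D4:**
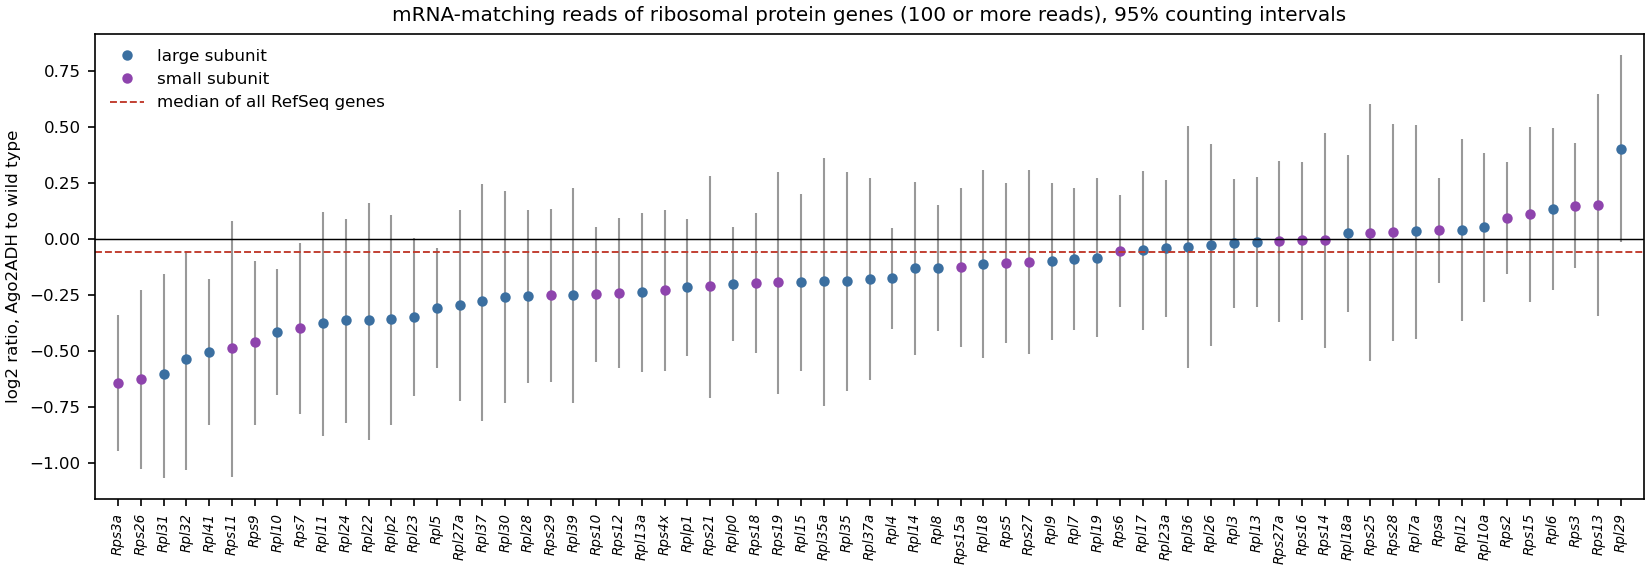
log2 ratio of RPM, Ago2ADH to wild type (vertical axis), for mRNA-matching reads of 67 of the 69 genes with 100 or more, large subunit in blue and small subunit in purple, with 95% counting intervals. The dashed line is the median of all RefSeq genes at -0.06. Rps3a is lowest at -0.64, Rpl29 highest at 0.40, and 54 of the 67 lie below 0.

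The 6 genes described next had low ratios over all reads, and most of their reads matched mRNA. Rps3a, a small subunit protein, had 260 wild-type and 152 Ago2ADH reads (-0.67, -0.96 to -0.37), of which 246 and 146 matched mRNA. Rpl31, of the large subunit near the tunnel exit, had 122 and 74 (-0.61, -1.05 to -0.18). Rpl41, the smallest ribosomal protein, had 205 and 132 (-0.53, -0.85 to -0.20). Rps9, a small subunit protein, had 167 and 114 (-0.44, -0.80 to -0.09), and Rpl10, which is added late to the large subunit, had 268 and 185 (-0.43, -0.70 to -0.15). Rpl24, on the large subunit surface facing the small subunit, had 109 and 73 (-0.47, -0.92 to -0.03). Over all reads each of these 6 was lower in Ago2ADH with an interval that excludes 0, and none reached a ratio of 0.5. For Rpl24 this did not hold over mRNA-matching reads (-0.36, -0.82 to 0.09, with 100 and 72 reads), nor with scaling to RefSeq-class reads (-0.38, -0.83 to 0.06) or without its most abundant sequence (-0.43, -0.88 to 0.01). Scaled to the mRNA-matching reads of all RefSeq genes, only Rps3a of the 6 kept an interval below 0, at -0.44 (-0.74 to -0.14). The other 5 reached across 0 on that scale, for example Rpl31 at -0.40 (-0.86 to 0.05) and Rpl41 at -0.30 (-0.63 to 0.02). Of all 69 genes, 2 had an interval below 0 on that scale, Rps3a and Rps26, and 4 an interval above 0. The share of all RefSeq genes on that scale was not computed, so these counts have no background beside them.

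Genes mutated in Diamond-Blackfan anaemia, a failure of red cell production, were listed separately. Of the 8 given here, all 7 with 100 or more reads were below 0, with a median of -0.26, and the interval lay below 0 in 2. Over all RefSeq genes 49.4% were below 0 and 9.31% had an interval below 0. Most ribosomal protein genes shared the direction: of the 72 with 100 or more reads, 55 (76.4%) were below 0. Their median was -0.15, and 14 had an interval below 0. Rps26 had 149 and 99 reads (-0.48, -0.86 to -0.10) and Rps7 had 151 and 107 (-0.39, -0.76 to -0.02). Rps19, the gene most often mutated, had 86 and 70 (-0.19, -0.66 to 0.28), Rps10 215 and 166 (-0.26, -0.56 to 0.03) and Rpl35a 68 and 57 (-0.15, -0.68 to 0.38). Rps24, with 26 and 22 reads, was under the minimum. Rpl5 and Rpl11, which bind 5S ribosomal RNA and the p53 regulator Mdm2, had 483 and 404 reads and 91 and 64 reads, and the interval of Rpl11 (-0.88 to 0.08) and that of Rpl5 (-0.34 to 0.05) reached across 0. With mRNA-matching reads alone Rpl5 was at -0.31 (-0.58 to -0.04), with 275 and 206 reads. With scaling to RefSeq-class reads the interval of Rps7 reached across 0 (-0.30, -0.67 to 0.06). The erythroid marker sum given above moved in the same direction (-0.63), and its part was not tested.

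The stalk proteins, which recruit translation factors to the large subunit, were all below 0 with intervals that reached across it. Rplp0, the stalk base, had 294 and 243 reads (-0.17), Rplp1 215 and 169 (-0.24) and Rplp2 201 and 154 (-0.28). Of the 201 and 154 reads of Rplp2, 101 and 81 matched the snoRNA Snora52. The paralog forms were scarce. Rpl22l1 had 36 and 25 reads, Rpl7l1 29 in each library and Rps27l 19 and 23. Rpl39l, a testis form, had 1 and 4 reads, and Rpl3l, a muscle form, 2 and 1, both at or near the 3 reads that a count of 0 still allows (0.395 and 0.426 RPM).

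The mRNA fragments lay mostly in coding sequence. Of the reads placed on a reference transcript, 84.9% in wild type and 85.6% in Ago2ADH had their middle in the coding part, which is 51.7% of the transcripts' summed length. The 3′ UTR, 35.2% of the length, held 11% and 10.3%, and the 5′ UTR, 13.1% of the length, 4.07% and 4.09%. These length shares depend on the reference transcripts, some of which are long beside their coding part. Rps15a has 5179 nt with 390 coding, and Rps20 has 3706 nt with 357 coding. Few reads touched the ends: 23 and 16 reads started within the first 10 bases of the reference transcript. Whether those bases hold the TOP tract in each gene was not checked. With the transcripts cut into 10 equal parts, part 4 held most reads (13.7% and 14.2%) and part 1 fewest (5.33% and 5.06%). No sequence dominated, the most frequent one making up a median of 1.87% of a gene's mRNA-matching reads.

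Most of these fragments matched the genome at several places. Of the mRNA-matching reads 12.9% and 12.6% had 1 genome match and 19.9% and 20.3% had over 10, against 63.7% and 72.9%, and 0.933% and 1.01%, in mRNA-matching reads of other genes. The snoRNA-matching reads of ribosomal protein names had 1 genome match in 91.0% and 91.8%. The kinds of read also differed in sequence: 22.0% and 23.6% of snoRNA-matching reads held TGATGA, the core of the C box, against 1.05% and 1.22% of mRNA-matching reads. CTGA was in 31.9% and 32.4% of snoRNA-matching reads and in 13.5% and 14.2% of mRNA-matching reads. In reads matching neither it was in 34.4% and 35.3%, and in 12.4% and 13.3% of RefSeq-class reads of other genes. These shares count reads, and the Rpl3 read (110 and 117) and Rpl4 read (86 and 106) shown above hold CTGA. Reads ending in CTGA made up 0.32% and 0.39% of those matching neither and 0.36% and 0.39% of snoRNA-matching reads. Among mRNA-matching reads they made up 0.73% and 0.94%. Both motifs were searched in the reads as sequenced, on that strand only, and a match is a description and not a functional site.

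Length differed between the libraries. Among mRNA-matching reads of ribosomal protein genes, 28.3% in wild type and 24.2% in Ago2ADH were 15 to 19 nt, and 29.5% and 34.2% were 25 nt or longer. snoRNA-matching reads moved alike, with 39.0% and 32.5% at 15 to 19 nt and 20.9% and 28.1% at 25 nt or longer. The 18 nt class held 19.6% and 16.0% of snoRNA-matching reads, and 9.40% and 8.18% when Rps12 was left out. In the other genes' mRNA-matching reads the share at 15 to 19 nt was 28.8% and 26.6%, and at 25 nt or longer 36.1% and 36.9%.

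The log2 ratio followed read length. Over all reads of 15 to 19 nt the 82 genes summed to 6752 and 4912 (-0.35, -0.40 to -0.30), over those of 20 to 24 nt to 8221 and 6822 (-0.16, -0.21 to -0.11) and over those of 25 nt or longer to 5489 and 5591 (0.14, 0.08 to 0.19). The median over genes with 100 or more reads went the same way, at -0.31 in 23 genes, -0.21 in 44 and 0.08 in 27. Over all RefSeq genes the medians in these classes were -0.16, -0.04 and 0.23. The members' median lay below these values in each class, but at 25 nt or longer its interval (-0.02 to 0.29) held the value of all genes, and the members' sum (0.14) lay above the sum of all genes (0.0065). These differences were not tested. The lower total in Ago2ADH is therefore a statement about reads under 25 nt. In mRNA-matching reads the sums were -0.38 (-0.46 to -0.30), -0.18 (-0.24 to -0.11) and 0.06 (-0.01 to 0.13). The same sums over all RefSeq genes were -0.32, -0.15 and -0.17.

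Counting by name missed reads that cross exon junctions. Reads matching the protein-coding transcripts of these genes, whatever name they carried and leaving out snoRNA matches, numbered 15365 in wild type and 12610 in Ago2ADH (-0.18, -0.21 to -0.14). Of these 67.7% and 68.7% carried a ribosomal protein name, 12.6% and 11.5% another RefSeq name, 3.05% and 3.24% no class and 15.5% in both the repeat class. Junction-crossing reads, with at least 3 bases on each side, made up 10.9% and 10.7%. Under ribosomal protein names there were only 14 and 13 of them. They made up 52.3% and 54.5% of the matching reads under another RefSeq name, 86.6% and 84.1% of those without a class and 85.6% and 88.0% of those without a genome match.

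Some genes were almost lost by name. Rps23, a small subunit decoding-centre protein, had 1 and 8 reads under its name and 176 and 143 by sequence match (-0.19, -0.52 to 0.14), of which 138 and 109 carried the name OTTMUSG00000022083. Rpl21 kept 18.2% of its matching reads, and by match had 167 and 118 (-0.39, -0.74 to -0.04), below 0 where its count by name was above. Rps4x, the X-linked small subunit protein, kept 48.9%, with 314 and 232 by match (-0.33, -0.58 to -0.08). Over the 74 genes with 100 or more matching reads outside the repeat and miRNA classes, the median share under the gene's own name was 83.2% and the median log2 ratio -0.16, with 62 below 0. These 3 genes were chosen after their values were seen.

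Per kilobase of coding sequence the level differed between genes. The 74 genes were selected by a minimum number of matching reads, which left out some genes with low values, so their spread is partly set by that minimum. Counted by match, the 74 genes had a median of 37.4 RPKM (RPM of coding reads per kilobase of coding sequence) in wild type, with the middle of them between 28.1 and 43.8 (quartiles) and a range of 16.8 to 80.7. In Ago2ADH the median was 31.4, with quartiles of 26.4 and 39.3 and a range of 9.74 to 71.3. Of the 74, Rpl41 was highest in wild type with 80.7, followed by Rplp1 with 76.6 and Rpl23a with 73.9, and Rpl7a was lowest with 16.8. Rpl41 has only 75 coding bases, and in Ago2ADH it was at 45.4, below Rplp1 (63.9) and Rpl23a (71.3). Rps12, first by read count, was at 56.5 and 52.3, behind Rpl10 at 57.2 in wild type. Among the paralog forms, Rps27l was at 5.74 in wild type and 4.51 in Ago2ADH, Rpl7l1 at 1.07 and 1.15 and Rpl22l1 at 11.5 and 7.37. Low values were not limited to these forms. Rps20 was at 6.63 and 3.58 and Rps24 at 6.07 and 7.64, both with too few matching reads to be among the 74. These levels leave out the repeat class, which held 15.5% of matching reads in both libraries. Whether the low values of these genes and of Rpl7a depend on that was not tested.

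**Figure D5:**
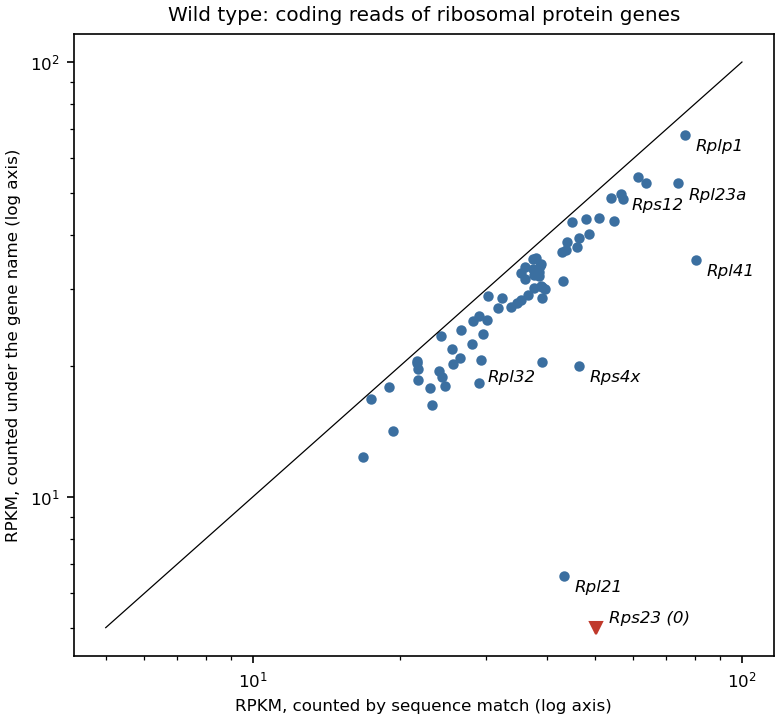
RPKM of coding sequence in wild type for 72 of the 74 genes with 100 or more matching reads, counted by sequence match (horizontal log axis) and under the gene's own name (vertical log axis). The line marks equal values, and the triangle at the bottom edge stands for Rps23, which has no coding read under its name. Rpl21 and Rps4x lie farthest below the line apart from Rps23.

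Other genes of the translation machinery are given on the same scale, all reads first. Of 33 translation factors 24 had 100 or more reads, with a median of -0.11, an interval below 0 in 6 and above in 2, against 9.31% and 10.3% of all genes. Over mRNA-matching reads 17 had a median of -0.22, with 5 below and 0 above, against 13.7% and 7.79%. Eef1a1, which brings aminoacyl-tRNA to the ribosome, had 1638 and 1400 reads (-0.12, -0.22 to -0.01). Eef2, the translocase, had 1155 and 1049 (-0.03, -0.15 to 0.09). Eif4a2, a helicase of initiation, had 2344 and 3091 (0.51, 0.43 to 0.59) but only 78 and 76 that matched its mRNA. As with Rpl21, its high ratio was outside the mRNA.

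The TOP mRNAs other than ribosomal proteins had a median of -0.05 in 16 genes over all reads and -0.12 in 13 over mRNA-matching reads. The interval lay below 0 in 4 of the 16 and above in 0, and over mRNA-matching reads below 0 in 6 of the 13 and above in 0, beside the shares of all genes just given. Nap1l1, a histone chaperone, met the size rule as lower over mRNA-matching reads, with 84 and 38 (-1.04, -1.63 to -0.47), against 0.772% of all genes. Pabpc1, the poly(A) binding protein, had 776 and 508 reads (-0.50, -0.67 to -0.34), Tpt1, a translationally controlled protein, 470 and 468 (0.10, -0.08 to 0.29), and Gnb2l1, the ribosome-bound scaffold also called Rack1, 558 and 453 (-0.19, -0.37 to -0.01). Fau, whose product contains the small subunit protein RPS30, had 130 and 128 (0.09, -0.28 to 0.45). Among ribosome biogenesis genes 8 of 44 had 100 or more reads, with a median of -0.11. Ncl, nucleolin, had 1947 and 1567 reads (-0.20, -0.30 to -0.11), of which 170 and 95 matched mRNA. Nop56, a core C/D snoRNP protein, had 1174 and 879 (-0.31, -0.44 to -0.18), of which 44 and 27 matched mRNA. Gnl3, nucleostemin, had 452 and 418 (0.00, -0.20 to 0.19), of which 19 and 6 matched mRNA.

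Mitochondrial ribosomal proteins, which build the separate ribosome of the organelle, gave far fewer reads. All 75 names together had 1054 and 987 reads, a ratio of 0.01 (-0.11 to 0.14), and over mRNA-matching reads 687 and 594 (-0.10, -0.26 to 0.06). Mrps28, the name with most reads, had 52 and 48.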

How the data were processed

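The authors deposited 1 table of distinct read sequences with the count of each in every library, its number of genome matches, a class and a description. Per the labels, RNA was gel-purified to 19 to 30 nt. For the genome build, aligner, trimming and RefSeq release, the sources used here give no statement. The counts are raw reads and were used as deposited, scaled to all reads of a library (7599870 in wild type and 7046197 in Ago2ADH).

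Reads were summed by gene name. Ratios carry exact conditional binomial 95% intervals, and shares exact Clopper-Pearson intervals (Python 3.11.15, scipy 1.17.1). The size rule asks for 100 or more reads over both libraries, a ratio of 0.5 or less or 2 or more, and an interval that excludes 1. The ratio step was tested on simulated data. Reads were matched without mismatch to GENCODE M21 transcripts. As the reference for positions, a protein-coding transcript cross-referenced to the gene's RefSeq accession in the table was preferred. Among several such transcripts, or where there was none, the one matching most reads was taken. A read that fits several genes has 1 name in the table, so counts of genes with near-identical copies are uncertain.

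The members and gene lists were chosen with earlier results of these data known. The text names the 12 genes with most wild-type reads, up to 8 largest decreases and 8 largest increases with an interval that excludes 1, and genes that meet the size rule. It also names the stalk, 5S RNP, Diamond-Blackfan and paralog lists and the 3 genes with most wild-type reads of each list outside the members. The split by transcript match, the count by sequence match and the scaling to mRNA-matching reads were added after seeing the data, and other genes and snoRNAs named were chosen after their values were seen. Some genes and snoRNAs are not reported here one by one, and their reads stay in the sums, medians and counts over all members. Alternatives tried were 10 planned settings and 7 added ones.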

Additional observations from a re-analysis of the deposited data

Results flagged for a closer look

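Snora65, an H/ACA snoRNA in an intron of Rpl12 (chr2:32963291-32963420, plus strand), was higher in Ago2ADH in reads that no count of its host includes. It had 0 reads under the name Rpl12 in either library, and 87 wild-type and 175 Ago2ADH reads elsewhere in the table, a log2 ratio of 1.12 (0.74 to 1.51). Nearly all carried a RefSeq name other than that of a ribosomal protein (87 and 173). Of the 16 reported hosted snoRNAs with 100 or more reads outside the host name it alone met the size rule as higher. Of the 87 snoRNAs with as many RefSeq-class reads outside ribosomal protein names 4.6% did, and 1 of 16 is near that share. Its most abundant read, in capitals, was the last 26 bases, counted 43 times in wild type and 105 times in Ago2ADH.
Snora65: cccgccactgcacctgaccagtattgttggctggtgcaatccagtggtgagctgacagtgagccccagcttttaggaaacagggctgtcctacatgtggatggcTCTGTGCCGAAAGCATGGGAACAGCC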

How the results depend on the processing

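No paired analysis was possible because each genotype has 1 library. Over all reads the median was -0.15, the sum -0.13, 16 of 72 genes had an interval that excludes 0, and none met the size rule. At a fold limit of 1.5, 2 genes met it, and the share of all RefSeq genes at that limit was not computed. Under every other setting none did. Scaling to RefSeq-class reads gave a median of -0.068 and a sum of -0.045. Distinct sequences gave -0.093 and -0.084, with 6 genes excluding 0. Reads of 20 to 24 nt gave a median of -0.21 and 9 genes of 44, 8 below 0 and 1 above. Over all RefSeq genes with such reads, 139 of 1039 lay below and 90 above. Reads of 25 nt or longer reversed the median (0.080) and the sum (0.14), with 7 genes of 27, 1 below 0 and 6 above. Over all RefSeq genes with such reads, 33 of 663 lay below and 204 above. Reads with 1 genome match left 8 genes of 21 tested, 5 below 0 and 3 above. Over all RefSeq genes with such reads, 207 of 2660 lay below and 301 above. Fewer genes reach the minimum under these filters. Of the settings added after seeing the data, mRNA-matching reads gave 9 genes, leaving out snoRNA matches 10, and snoRNA matches alone 6. Over all RefSeq genes, 177 of 1296 lay below 0 and 101 above with mRNA-matching reads. Leaving out snoRNA matches, 298 of 3290 lay below and 327 above. Scaling mRNA-matching reads to RefSeq mRNA-matching reads reversed the median (0.026) and the sum (0.049), with 6 genes. No share over all RefSeq genes was computed for that scaling, for distinct sequences or for snoRNA matches alone. Counting by sequence match gave a sum of -0.18, also with the repeat class. Median-of-ratios scaling, other read minimums, leaving out each gene's top sequence and leaving out Rps12 kept both values within their main intervals.

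Some genes whose interval excludes 0 changed sign. Reads of 25 nt or longer put Rpl31 at 0.048, Rpl7a at 0.34, Rps12 at 0.42 and Rps26 at 0.018. Distinct sequences put Rpl4 at -0.075, Rpl7a at 0.11, Rps12 at 0.0097 and Rpsa at 0.043. Reads with 1 genome match put Rps26 at 0.018. mRNA-matching reads put Rpl4 at -0.18, Rpl7a at 0.033 and Rpsa at 0.038, and scaled to mRNA-matching reads Rpl7a at 0.24 and Rpsa at 0.24. Counting by sequence match put Rpl21 at -0.39 and Rpl4 at -0.089, and with the repeat class Rpl21 at -0.39, Rpl4 at -0.11 and Rpl7a at 0.011. Beyond the settings' own construction, the cause was not tested. Depth limits single genes: with 100 reads, ratios well short of the size rule cannot be told from 0.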
